A study of Homo sapiens with 96 samples.

Results

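A pair of antibodies against CD20, LT20 and rituximab, was compared directly in REC1 cells, with 3 arrays of each, 6 of the 96 arrays measured and 54675 probe sets on each array. REC1 is an established mantle cell lymphoma line. Both antibodies were given at 10 µg/ml for 4 h. LT20 is a mouse antibody with a murine Fc part and rituximab carries a human Fc part, so the antigen-binding part and the Fc part differ together and cannot be told apart in this pair. The further REC1 groups, each of 3 arrays after 4 h, were the F(ab')2 fragment of rituximab, which lacks the Fc part, anti-IgG, anti-IgM and the F(ab')2 fragment of anti-IgM, a human IgG isotype antibody, and untreated cells. These antibody groups are all labelled 10 µg/ml as well. For the anti-IgM fragment the study's methods give a lower dose, set to be equimolar, and for the rituximab fragment they name no dose. Equal molar doses of the rituximab fragment and whole rituximab can therefore not be assumed. A mouse IgG isotype was not analysed here. SUDHL4 and OciLy18, lines of diffuse large B-cell lymphoma, and Z138, a second mantle cell lymphoma line, received the same pair of antibodies.

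CD20, the product of MS4A1, is a membrane protein of mature B cells, and antibodies of type I, to which both of these belong, cluster it in the membrane and can set off signals that overlap with those of the B-cell receptor. The receptor acts through Src family kinases and SYK to calcium release, MAP kinases and NF-kB, and its early targets are transcription factors, chemokines and feedback regulators. FCGR2B, the inhibitory Fc receptor of B cells, binds the Fc part of IgG and dampens the receptor's signal. MicroRNA transcripts appear among the results below, and their mature sequences are shown because the arrays measured only the transcripts that carry them and not the mature products. The capitals mark the seed, bases 2 to 8, and the seeds of the pair differ (RefSeq, GRCh38.p14, both on the plus strand, chr5:160485372-160485393 and chr21:25573983-25574006).
hsa-miR-146a-5p: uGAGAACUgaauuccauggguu
hsa-miR-155-5p: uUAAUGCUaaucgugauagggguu

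LT20 left REC1 cells with higher signals than rituximab in 14 entries and lower signals in 18. An entry is a gene, or a probe set that has several gene symbols or none, and 9348 entries reached a mean signal above 100 in at least 1 REC1 group and were tested. To be called, an entry had to differ by more than 2-fold at an adjusted p below 0.05 (limma), with its LT20 or rituximab mean over 100, so 0.15% of entries were called higher and 0.193% lower, 0.342% in all. The higher entries include a macrophage growth factor, early-response genes, a death inhibitor, the miR-146a transcript and the joint probe set of MIR155 and MIR155HG, and the lower ones a cell cycle inhibitor, adaptors and Fc receptor-type proteins of B cells. Their folds were 2.01 to 3.3 for the higher entries (median 2.13) and 2 to 3.89 for the lower ones (median 2.16). All 33 called probe sets had LT20 arrays that did not overlap with the rituximab arrays, as was so for 17.4% of genes in the higher and 14.7% in the lower direction by their brightest probe set. The 2-fold limit set the size of these counts. Of 14068 probe sets tested, 1273 had an adjusted p below 0.05 (3387 an unadjusted p below 0.05), and 1215 of them changed by 2-fold or less, with a median of 1.38-fold over the 1273. The labels do not say whether the 3 arrays of a group came from separate cultures, so every p measures the spread between arrays.

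Among the genes higher with LT20, CSF1, the growth factor of macrophages, stood first. On the called probe set its signals were 206, 292 and 268 with LT20, against 65.7, 88.6 and 76.9 with rituximab, a 3.3-fold difference (95% interval 2.4 to 4.54, adjusted p = 2.45e-05, limma). Every LT20 array lay well above every rituximab array. Its brightest probe set gave 1260 ± 185 with LT20 and 654 ± 52.2 with rituximab (SD, n = 3), which is 1.92-fold (adjusted p = 3.96e-05, limma) and just under the fold limit. In the fit of 4 cell lines given at the end, neither of these CSF1 probe sets passed (adjusted p = 0.065 for the called one and 0.0669 for the brightest, limma). The remaining 2 CSF1 probe sets, 1.86-fold and 2.31-fold, did not pass (adjusted p = 0.268 and 0.173, limma). MIR146A, the transcript that carries miR-146a, a brake on NF-kB signaling, had signals of 161, 156 and 177 with LT20 and 62.7, 41.2 and 48.5 with rituximab. The LT20 arrays lay close together and far above the others, and the difference was 3.28-fold (2.6 to 4.14, adjusted p = 4.42e-07, limma). The joint probe set of MIR155 and MIR155HG cannot be assigned to either symbol. It gave 682, 601 and 595 with LT20 and 277, 279 and 276 with rituximab, 2.25-fold (1.99 to 2.55, adjusted p = 1.26e-08, limma), and its rituximab arrays were almost identical.

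IER3, SGK1, CFLAR and RGS16 were also higher with LT20. IER3, an immediate early gene of cell survival, had 210, 207 and 178 with LT20 and 73.8, 57.7 and 76.9 with rituximab, 2.87-fold (2.45 to 3.37, adjusted p = 1.26e-08, limma). SGK1, a kinase of the serum response, had 238, 228 and 208 with LT20 and 98.1, 120 and 102 with rituximab, 2.11-fold (1.68 to 2.65, adjusted p = 0.00011, limma). Both genes kept the 3 arrays of each antibody clearly apart. CFLAR, which encodes the caspase-8 inhibitor c-FLIP, had 761, 706 and 658 with LT20 and 369, 337 and 340 with rituximab, 2.03-fold (1.73 to 2.38, adjusted p = 3.5e-06, limma). A second CFLAR probe set was 1.87-fold higher (adjusted p = 8.42e-05, limma) and the weakest, 1.36-fold, did not pass (adjusted p = 0.0711, limma). The tested CFLAR probe sets are all of the kind that can cross-hybridize. RGS16, a GTPase activator that shuts off G proteins, was 2.01-fold higher on the called probe set and 1.72-fold on its brightest, 194 ± 10.2 with LT20 and 113 ± 8 with rituximab (SD, n = 3).

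The other genes higher with LT20 were ZC3H12C, of the regnase family of RNA-degrading proteins (2.37-fold), SH3RF1, a scaffold of the JNK pathway (2.35-fold), IL4I1, an amino acid oxidase (2.14-fold), and the HMG-box gene TOX2 (2.09-fold). PDGFA, a growth factor, was 2.03-fold higher on the called probe set and 1.8-fold on its brightest. PTGER4, a prostaglandin E2 receptor, was called on a weak probe set, 121 ± 6.90 with LT20 and 57.1 ± 5.32 with rituximab (2.12-fold, adjusted p = 0.0205, limma). That call did not survive leaving out any 1 of 5 of the 6 arrays, with an adjusted p of 0.0545 to 0.0749. The brightest PTGER4 probe set read 2510 ± 76.5 with LT20 and 1760 ± 76.4 with rituximab. Its difference of 1.43-fold was below the fold limit but passed (adjusted p = 2.45e-05, limma). SNAPC4, a subunit of the snRNA promoter complex, was called on a probe set of the kind that can cross-hybridize (2.06-fold), while its brightest was 1.28-fold and did not pass (adjusted p = 0.106, limma).

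**Figure D1:**
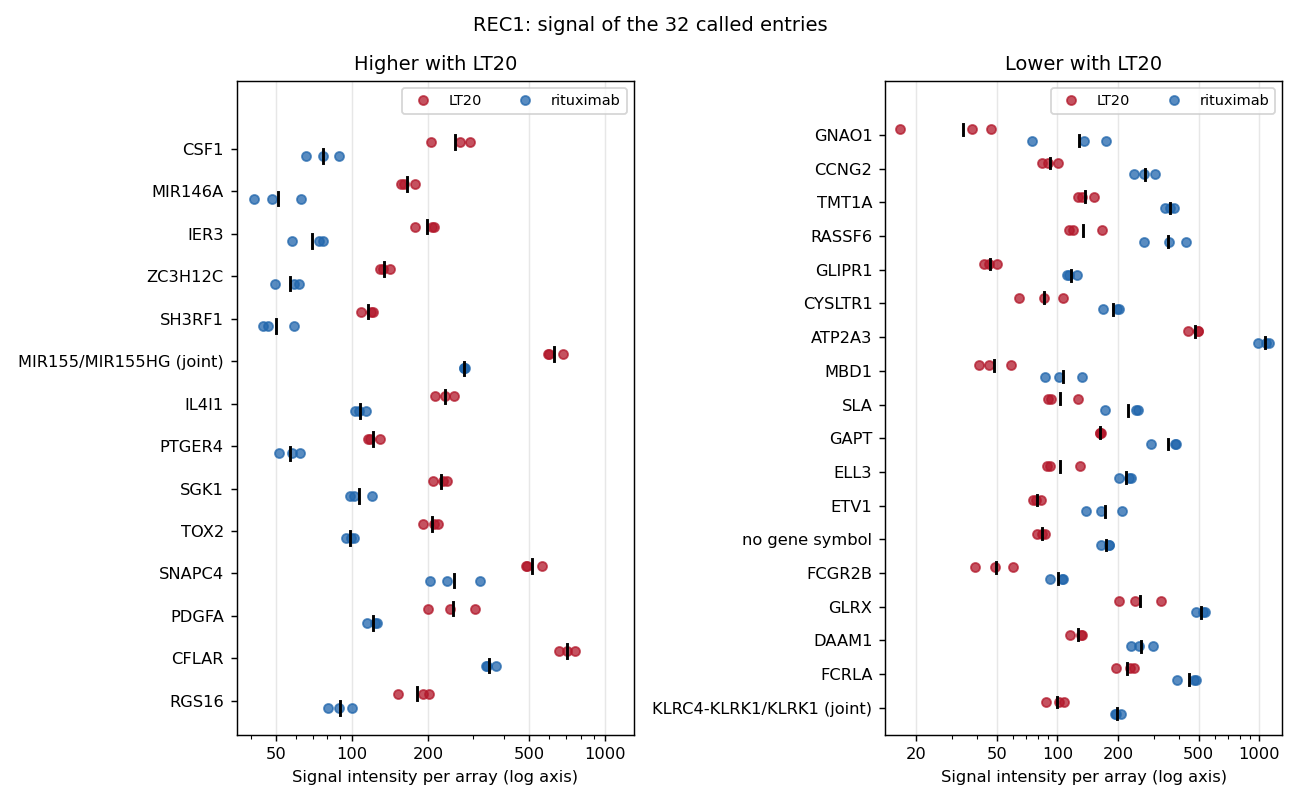
Signal intensity of each array (points, log axis) for the 14 entries called higher and the 18 called lower with LT20 than with rituximab in REC1, with the group mean as a bar; each gene is shown by its called probe set of largest change. No entry has overlapping antibody groups, and GNAO1 has the widest spread within a group, 16.6 to 47.1 with LT20 and 74.8 to 174 with rituximab.

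Among the called genes with more than 1 tested probe set, CCNG2 was the one called on all of them, as lower with LT20. It encodes cyclin G2, which restrains the cell cycle and is a textbook FOXO target. Its signals were 84.0, 101 and 89.5 with LT20, against 240, 267 and 305 with rituximab, 2.95-fold lower with LT20 (2.42 to 3.59, adjusted p = 1.68e-07, limma), and its second probe set was 2.49-fold lower. All 3 LT20 arrays lay far below all rituximab arrays. TMT1A, a thiol methyltransferase, had 152, 133 and 126 with LT20 and 376, 360 and 342 with rituximab, 2.63-fold lower (2.21 to 3.15, adjusted p = 1.68e-07, limma). RASSF6, of the Ras association domain family, had 120, 166 and 114 with LT20 and 268, 434 and 355 with rituximab, also 2.63-fold lower (2.11 to 3.26, adjusted p = 3.27e-06, limma). Its arrays varied more than those of TMT1A but did not overlap. GNAO1, a G protein alpha subunit, had the largest fold of all, 3.89-fold lower, with the least certain value. Its signals were 47.1, 37.9 and 16.6 with LT20 and 174, 135 and 74.8 with rituximab (interval 1.86 to 8.18, adjusted p = 0.0182, limma), and without LT20 replicate 3, rituximab replicate 1 or rituximab replicate 2 the adjusted p was 0.111, 0.0675 and 0.0698.

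An Fc receptor, adaptors and a calcium pump were among the other lower genes. FCGR2B had 49.2, 39.0 and 60.3 with LT20 and 106, 91.7 and 105 with rituximab, 2.07-fold lower (1.61 to 2.66, adjusted p = 0.000432, limma). Its LT20 signals were weak, below the limit of 100, and an exact permutation test over the 6 arrays gave p = 0.1, the smallest it can give. Groups of 3 that do not overlap always give that value, so the test adds nothing to the call. SLA, the Src-like adaptor that lowers antigen receptor levels, had 90.2, 92.6 and 126 with LT20 and 172, 245 and 251 with rituximab, 2.16-fold lower (adjusted p = 0.000214, limma). A second, weaker SLA probe set was 2.02-fold lower and did not pass (adjusted p = 0.282, limma). GAPT, an adaptor that binds GRB2, had 164, 162 and 162 with LT20 and 292, 385 and 380 with rituximab, 2.15-fold lower (adjusted p = 0.000146, limma). In both adaptors the lowest rituximab array still lay above all LT20 arrays. FCRLA, an Fc receptor-like protein inside B cells, was 2.04-fold lower on one probe set and 1.55-fold and 1.51-fold on its brighter ones, 335 ± 29.3 with LT20 and 518 ± 24.2 with rituximab on the brightest. ATP2A3, the calcium pump SERCA3, had 496, 499 and 444 with LT20 and 982, 1080 and 1120 with rituximab, 2.21-fold lower (1.94 to 2.52, adjusted p = 3.76e-08, limma), and its remaining probe sets were 1.7-fold to 2.34-fold lower, all passing.

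The other lower genes were CYSLTR1, a leukotriene receptor (2.25-fold, and 1.6-fold on its brightest probe set), ELL3, a B-cell elongation factor (2.15-fold), the ETS factor ETV1 (2.14-fold, and 1.85-fold on its brightest), the glutaredoxin GLRX (2.06-fold) and the formin DAAM1 (2.05-fold, and 1.99-fold on its brightest). A probe set with no gene symbol was 2.09-fold lower, and the joint probe set of KLRC4-KLRK1 and KLRK1 2-fold lower. For 2 genes the call rested on a weak probe set only. GLIPR1 was 2.52-fold lower there, with 46.4 ± 3.56 under LT20 and 117 ± 6.76 under rituximab, and 1.11-fold lower on its brightest, which did not pass (adjusted p = 0.424, limma). That brightest probe set is of the kind that can cross-hybridize. Of its remaining probe sets 1 was 1.66-fold lower and passed (adjusted p = 0.0123, limma), and the other, 1.41-fold, did not (adjusted p = 0.112, limma). MBD1, a methyl-CpG binding protein, was 2.2-fold lower on its weak probe set and 1.08-fold lower on its brightest (adjusted p = 0.541, limma). Over all 29 called genes with 1 symbol, 18 had more than 1 tested probe set, the brightest probe set was called in 17 of the 29, and no tested probe set ran in the opposite direction.

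The genes separating the antibodies were next placed among all REC1 treatments, as the plot of 8 genes in 6 groups shows. The 32 entries were chosen for a large difference between LT20 and rituximab, a choice that by itself favours any further group lying between them, and LT20 passing more often against untreated cells, so the counts here describe these entries and do not test an order of treatments. For 13 of the 14 higher entries the rituximab mean lay between those of LT20 and untreated cells, and for 15 of the 18 lower entries likewise. SGK1 averaged 1390 with anti-IgM, 225 with LT20, 128 with the F(ab')2 fragment of rituximab, 107 with rituximab, 102 with the isotype and 16.7 in untreated cells. CCNG2 ran the opposite way, with 66.9, 91.5, 214, 270, 371 and 540 in the same order of groups. ELL3 averaged 29.5 with anti-IgM, 103 with LT20, 171 with the fragment, 219 with rituximab, 318 with the isotype and 683 in untreated cells. In 13 of 14 higher and 17 of 18 lower entries the fragment stood between LT20 and rituximab, and in 11 and 14 entries anti-IgM lay beyond LT20. Set against the same untreated arrays, 14 of the higher entries were called as higher with LT20 (2.89% of all entries) and 3 with rituximab (1.22%). Of the lower entries, 16 were called as lower with LT20 (3.15% of all) and 3 with rituximab (0.749%). SNAPC4 was one that did not follow this order, with 514 ± 44.2 under LT20, 253 ± 59.4 under rituximab and 254 ± 35.7 in untreated cells.

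**Figure D2:**
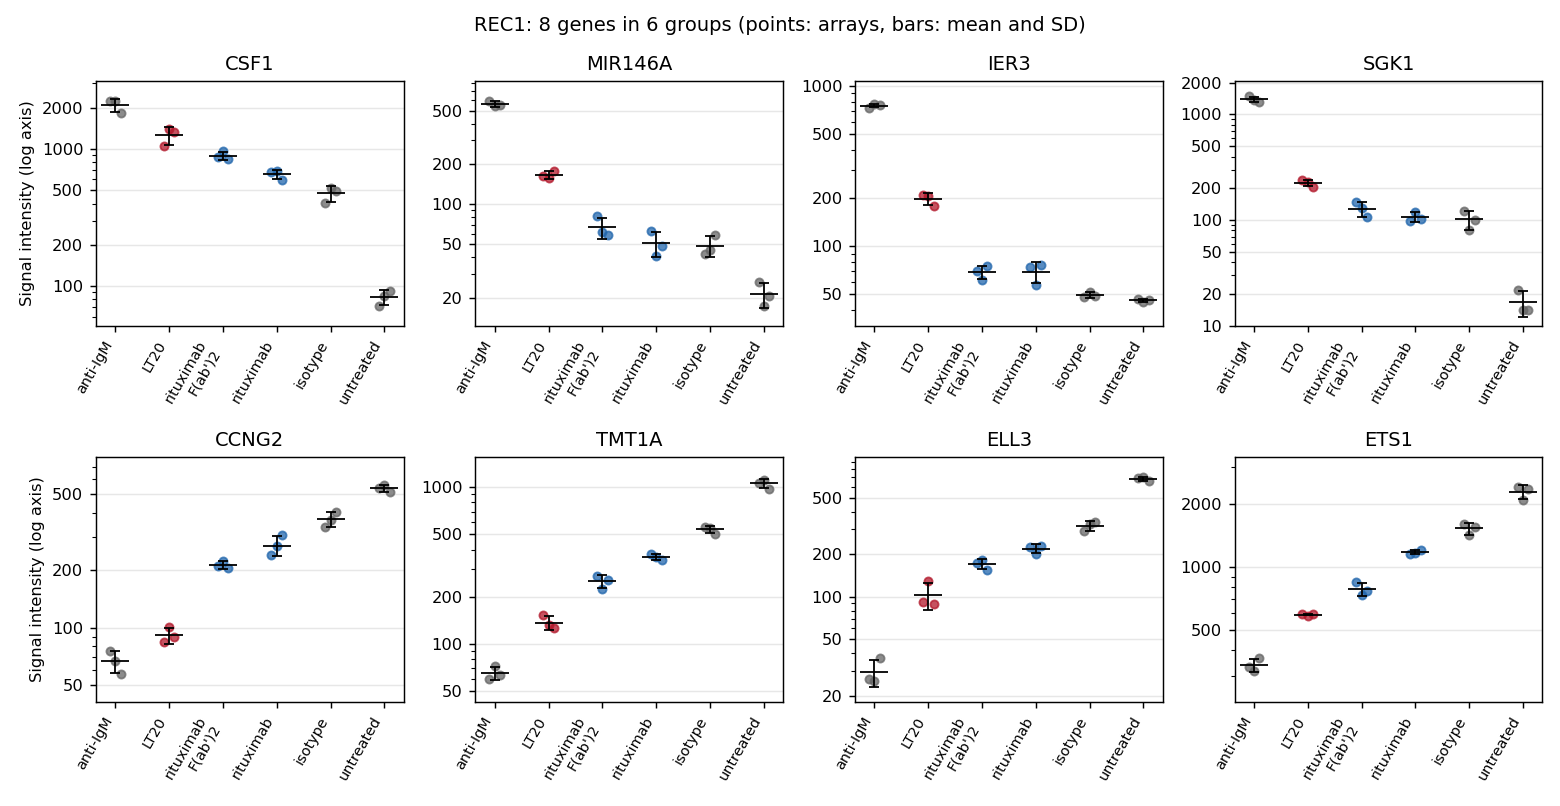
Signal intensity in REC1 (log axis) of 8 genes with anti-IgM, LT20, the rituximab F(ab')2 fragment, rituximab, the human isotype and no antibody; points are arrays, bars the mean and SD (n = 3), each gene by its brightest probe set. The LT20 mean lies between anti-IgM and the rituximab groups in all 8, as for ETS1, with 338 under anti-IgM, 592 under LT20 and 1180 under rituximab. The 8 genes were picked as examples. Over the called entries anti-IgM lay beyond LT20 in 11 of 14 higher and 14 of 18 lower ones.

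The antibody without its Fc part was used as a further reference. LT20 was higher than the F(ab')2 fragment in 12 entries (0.128%) and lower in 3 (0.0321%), and the 32 entries of the comparison with whole rituximab all had the same sign against the fragment, though 4 of the 14 higher and 3 of the 18 lower ones were called. MIR146A was 2.48-fold higher, IER3 2.88-fold higher, CCNG2 2.35-fold lower and RASSF6 2.12-fold lower with LT20 than with the fragment (adjusted p = 4.57e-05, 2.28e-08, 2e-05 and 0.000209, limma). CSF1 was 2.51-fold higher on the called probe set, which was called here as well (adjusted p = 0.001, limma), and 1.4-fold higher on its brightest. These contrasts share the LT20 arrays with the direct one and are not a second test of it. Between rituximab and its own fragment, limma called 0 entries and 0 probe sets had an adjusted p below 0.05, with 813 at an unadjusted p below 0.05.

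Human IgG alone moved REC1 cells as well. Against the isotype arrays LT20 had 40 entries higher (0.428%) and 62 lower (0.663%), and the fragment 7 higher (0.0749%) and 23 lower (0.246%). Whole rituximab had 0 in either direction, with 92 probe sets at an adjusted p below 0.05 (limma) and 1440 at an unadjusted p below 0.05. SGK1 was 2.24-fold higher than isotype with LT20 and 1.06-fold with rituximab (adjusted p = 1.31e-05 and 0.905, limma), and CCNG2 was 4.05-fold and 1.37-fold lower (adjusted p = 1.07e-09 and 0.153, limma). Set against untreated cells, 564 entries (6.03%) were called with LT20, 344 (3.68%) with the fragment, 184 (1.97%) with rituximab and 69 (0.738%) with the isotype, all of them against the same 3 arrays.

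Without the 2-fold limit, and with each of the 7841 genes given by its brightest probe set, 439 genes (5.6%) were higher and 355 (4.53%) lower with LT20 than with rituximab at an adjusted p below 0.05 (limma). Most of the higher genes lay above untreated cells and most of the lower genes below them. These genes were chosen by a difference between the same LT20 and rituximab arrays. That choice by itself favours LT20 passing in the direction of the difference and rituximab passing in the opposite one. The counts here and in the following paragraph therefore describe these genes and do not test an order of treatments. Of the 439, 210 passed above untreated cells with both antibodies and 172 with LT20 but not with rituximab. Of the 355, 201 passed below untreated cells with both and 125 with LT20 but not with rituximab. In 34 of the higher and 12 of the lower genes neither antibody passed against untreated cells.

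In a further 23 of the genes higher with LT20, rituximab passed below untreated cells, and in 17 of the genes lower with LT20 it passed above them. Of the 23, LT20 did not pass against untreated cells in 20, passed below them in 2 and above them in 1. CD84, an adhesion receptor of the SLAM family, had 186, 161 and 167 with LT20, 133, 97.9 and 106 with rituximab and a mean of 184 in untreated cells (adjusted p = 0.00124 for LT20 against rituximab, limma). MBD4, a DNA glycosylase, averaged 592 ± 10.7 with LT20, 479 ± 31.2 with rituximab and 658 in untreated cells. MAP3K8, a kinase upstream of ERK and NF-kB, was the gene that stood above untreated cells with LT20 and below them with rituximab, with means of 235, 149 and 190. Of the 17 lower genes, EGR1, CD22, PTPN6, VAV1 and LAIR1 are given here. In 8 of the 17 LT20 raised the gene as well but less, and in 9 LT20 did not pass. EGR1, an immediate early transcription factor, had 684, 580 and 632 with LT20, 798, 799 and 867 with rituximab and a mean of 233 in untreated cells, 1.3-fold lower with LT20 (adjusted p = 0.0127, limma). It was the one gene of the immediate early factors that passed as lower, although anti-IgM took it to 1170. CD22, an inhibitory lectin of B cells, averaged 359 ± 24.6 with LT20, 499 ± 46.5 with rituximab and 307 in untreated cells, 1.39-fold lower with LT20 (adjusted p = 0.000787, limma). PTPN6, the phosphatase SHP-1, averaged 1800 with LT20, 2180 with rituximab and 1420 in untreated cells, and VAV1, an exchange factor of the receptor pathway, 378, 544 and 403. LAIR1, another inhibitory receptor, averaged 165 with LT20, 250 with rituximab and 180 in untreated cells. For VAV1 and LAIR1 LT20 did not pass against untreated cells. With the human isotype CD22 averaged 492, VAV1 530, LAIR1 263, CD84 127, MBD4 565 and MAP3K8 175. Rituximab did not pass against the isotype in any of them (adjusted p = 0.956, 0.903, 0.903, 0.635, 0.162 and 0.467, limma). The isotype passed against untreated cells, on the same side as rituximab, in CD22, VAV1, LAIR1 and CD84, but not in MBD4 and MAP3K8. EGR1 and PTPN6 are not set against the isotype here.

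Pathway lists were then read by the number of genes that passed without the fold limit, beside the 5.6% and 4.53% over all genes and their median log2 difference of 0.01. Of 15 tested NF-kB targets and regulators 7 were higher with LT20 and 0 lower, with a list median of 0.39 (log2). NFKBIA, which encodes the inhibitor that NF-kB induces against itself, had 1230, 1160 and 1260 with LT20 and 800, 747 and 663 with rituximab, 1.66-fold (adjusted p = 2.79e-05, limma). TNFAIP3, the deubiquitinase A20, had 701, 776 and 757 with LT20 and 439, 472 and 482 with rituximab, 1.6-fold (adjusted p = 1.66e-05, limma). In both genes the LT20 arrays formed a separate, higher group. The LT20 mean of NFKBIA, 1220, was above the 962 of anti-IgM as well (1.27-fold, adjusted p = 0.0123, limma), while for TNFAIP3, with 745 and 650, that difference gave an adjusted p of 0.0992. REL, an NF-kB subunit, was 1.54-fold higher, 2170 ± 60.9 with LT20 and 1420 ± 128 with rituximab. NFKBID, RELB and NFKBIZ were 1.55-fold, 1.5-fold and 1.38-fold higher, and CFLAR is the gene of this list that was called. NFKBIZ is among the genes in which rituximab passed below untreated cells (adjusted p = 0.0317, limma). It averaged 591 with LT20, 427 with rituximab and 531 in untreated cells, and LT20 did not pass against untreated cells (adjusted p = 0.272, limma). With the human isotype NFKBIZ averaged 466. Rituximab did not pass against the isotype, nor the isotype against untreated cells (adjusted p = 0.768 and 0.253, limma).

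The promoters of these genes are shown because 4 of the 6 with a promoter in the RefSeq table hold an NF-kB motif. The window runs from 250 bases before to 50 after the start of the gene, and the motif searched was GGG, then any 2 bases, then TTTCC, on both strands. It occurred in 66.7% of these 6 promoters, in 1 of the 7 promoters of list members that did not pass (NFKB1), in 2.28% of the 6623 promoters of all tested genes and in 1.92% of all 27305 in the table. The list was made of known NF-kB genes, so this share describes the list and is no independent result, and a match is not a measured site. None of the 9 promoters of called higher genes and none of the 13 of called lower genes held the motif. Capitals mark the matches (RefSeq, GRCh38.p14), for NFKBIA at chr14:35404700-35404999 on the minus strand and, on the plus strand, for TNFAIP3 at chr6:137867009-137867308, which holds 2, REL at chr2:60881324-60881623 and NFKBIZ at chr3:101827740-101828039.
NFKBIA: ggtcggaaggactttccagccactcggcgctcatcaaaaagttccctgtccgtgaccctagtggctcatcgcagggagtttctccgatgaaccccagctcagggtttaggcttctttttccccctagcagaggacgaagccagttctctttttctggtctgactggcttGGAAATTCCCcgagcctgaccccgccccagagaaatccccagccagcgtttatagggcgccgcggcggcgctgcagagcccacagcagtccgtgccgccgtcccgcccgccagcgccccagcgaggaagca
TNFAIP3: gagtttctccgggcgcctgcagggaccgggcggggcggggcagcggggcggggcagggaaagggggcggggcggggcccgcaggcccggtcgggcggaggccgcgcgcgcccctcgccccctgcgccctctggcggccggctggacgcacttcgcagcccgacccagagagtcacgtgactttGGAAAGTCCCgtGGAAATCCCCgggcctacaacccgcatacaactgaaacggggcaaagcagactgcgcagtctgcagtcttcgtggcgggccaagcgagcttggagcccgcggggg
REL: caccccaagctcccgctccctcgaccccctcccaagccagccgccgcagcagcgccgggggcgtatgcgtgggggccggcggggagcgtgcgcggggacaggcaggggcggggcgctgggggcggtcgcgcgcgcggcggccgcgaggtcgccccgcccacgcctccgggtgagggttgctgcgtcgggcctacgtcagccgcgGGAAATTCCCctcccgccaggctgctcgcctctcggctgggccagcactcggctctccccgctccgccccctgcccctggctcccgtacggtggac
NFKBIZ: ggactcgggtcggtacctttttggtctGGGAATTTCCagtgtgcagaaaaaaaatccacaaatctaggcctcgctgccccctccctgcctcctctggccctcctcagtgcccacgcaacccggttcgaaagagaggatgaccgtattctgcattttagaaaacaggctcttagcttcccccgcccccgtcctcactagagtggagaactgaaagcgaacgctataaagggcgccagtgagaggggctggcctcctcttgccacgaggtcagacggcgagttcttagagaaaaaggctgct

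Chemokines, cytokines and early genes that passed were higher with LT20, with EGR1 as the exception. Of 11 tested chemokines and cytokines 6 were higher and 0 lower (median log2 difference 0.46). CCL22, a chemokine that draws T cells, averaged 498 ± 58.2 with LT20 and 308 ± 50 with rituximab, and the lymphotoxin gene LTA 247 ± 34.0 and 164 ± 9.23 (SD, n = 3). The T-cell and monocyte chemokine CCL4 was high under both antibodies, 3950 ± 205 with LT20 and 3190 ± 170 with rituximab, against 202 in untreated cells, and was 1.24-fold higher with LT20 (adjusted p = 0.0126, limma). The joint probe set of CCL3, CCL3L1 and CCL3L3 averaged 3670 ± 139 with LT20 and 3240 ± 129 with rituximab and did not pass (adjusted p = 0.179, limma). With the human isotype alone this joint probe set averaged 3170 ± 169, against 334 in untreated cells. Rituximab was 1.02-fold above the isotype there and did not pass (adjusted p = 0.939, limma). Of 24 other immediate early genes 8 were higher and 0 lower, among them GADD45B, of the stress and growth arrest family (1.85-fold), GEM, a small GTPase (1.74-fold), and PHLDA1 (1.44-fold). Immediate early transcription factors had 4 of 20 higher, BHLHE40 1.65-fold, KLF10 1.64-fold, SRF 1.29-fold and the orphan nuclear receptor NR4A3, which stayed weak at 30.2 ± 11.1 with LT20 and 5.84 ± 1.54 with rituximab, and EGR1 lower. MAPK and G protein feedback genes had 4 of 14 higher and 0 lower, among them SPRED1, an inhibitor of RAS signaling (1.5-fold), and the phosphatase DUSP2 (1.26-fold). Of 14 apoptosis regulators 4 were higher and 0 lower, with the relatives of BCL2 named BCL2A1 1.5-fold, BCL2L1 1.61-fold and BCL2 itself 1.25-fold among them.

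Activation markers and the stress response were read in the same way. IL21R, the receptor of interleukin 21, had 673, 733 and 742 with LT20 and 367, 367 and 368 with rituximab, 1.95-fold (adjusted p = 4.23e-07, limma). With CD58, IL4R, CD80 and CD83 it made up the 5 of 22 activation markers that were higher, and S1PR1, the receptor for leaving lymphoid tissue, was lower (1.37-fold). Of 16 genes of the integrated stress response 4 were higher and 0 lower, ASNS, SLC7A5, CEBPB and CEBPG, by 1.29-fold to 1.4-fold.

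Genes of receptor signaling and B-cell transcription that passed were lower with LT20, except XBP1, and most members of each list did not pass. Of 26 proximal receptor genes 8 were lower and 0 higher (median log2 difference -0.18), and of 19 inhibitory receptors and phosphatases 6 were lower and 0 higher (-0.26). CD79B, a signaling chain of the receptor, had 622, 636 and 628 with LT20 and 1040, 915 and 934 with rituximab, 1.53-fold lower (adjusted p = 0.000141, limma). The kinase BLK was 1.71-fold lower, VAV3 1.47-fold and PRKCB 1.38-fold. SYK, the kinase that links the receptor to its effectors, averaged 960 ± 51.5 with LT20 and 1110 ± 157 with rituximab and did not pass (adjusted p = 0.339, limma). Among 23 B-cell transcription factors 6 were lower and 1, XBP1, higher. ETS1 had 595, 585 and 594 with LT20 and 1160, 1170 and 1210 with rituximab, 1.99-fold lower (1.72 to 2.31, adjusted p = 1.85e-06, limma), just under the fold limit of 2. Its arrays within each antibody were close to identical. POU2AF1, a B-cell coactivator, was 1.6-fold, ID3 1.59-fold and IKZF3 1.53-fold lower.

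The cell cycle lists had lower genes and no higher ones among those that passed. Of 28 mitotic genes 8 were lower and 0 higher (median log2 difference -0.27), among them the kinase NEK2 (1.53-fold) and CDC20, an activator of the anaphase-promoting complex (1.45-fold). Of 24 DNA replication genes 1 was lower, MCM5 (1.23-fold), a share near that of all genes. FOXO targets had 4 of 12 lower and 0 higher. Beside CCNG2 these were the insulin receptor INSR (1.82-fold), TXNIP, an inhibitor of thioredoxin (1.45-fold), and CDKN1B, the inhibitor p27 of cyclin-dependent kinases (1.27-fold). Cholesterol synthesis (3 of 11) and ER chaperones (2 of 13) had only higher genes among those that passed, glycolysis and glucose uptake 1 of 16 lower (GPI), and ribosome biogenesis 0 of 15 in either direction. Of 7 interferon-stimulated genes 2 were lower, TRIM22 (1.79-fold) and MX2 (1.44-fold), and of 5 genes of MHC class II presentation CTSS (1.57-fold) and CD74 (1.18-fold). Of 11 p53 targets PLK3 and TNFRSF10B were higher and DDB2 lower, at 36.4 ± 2.66 with LT20 and 78.6 ± 13.7 with rituximab.

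**Figure D3:**
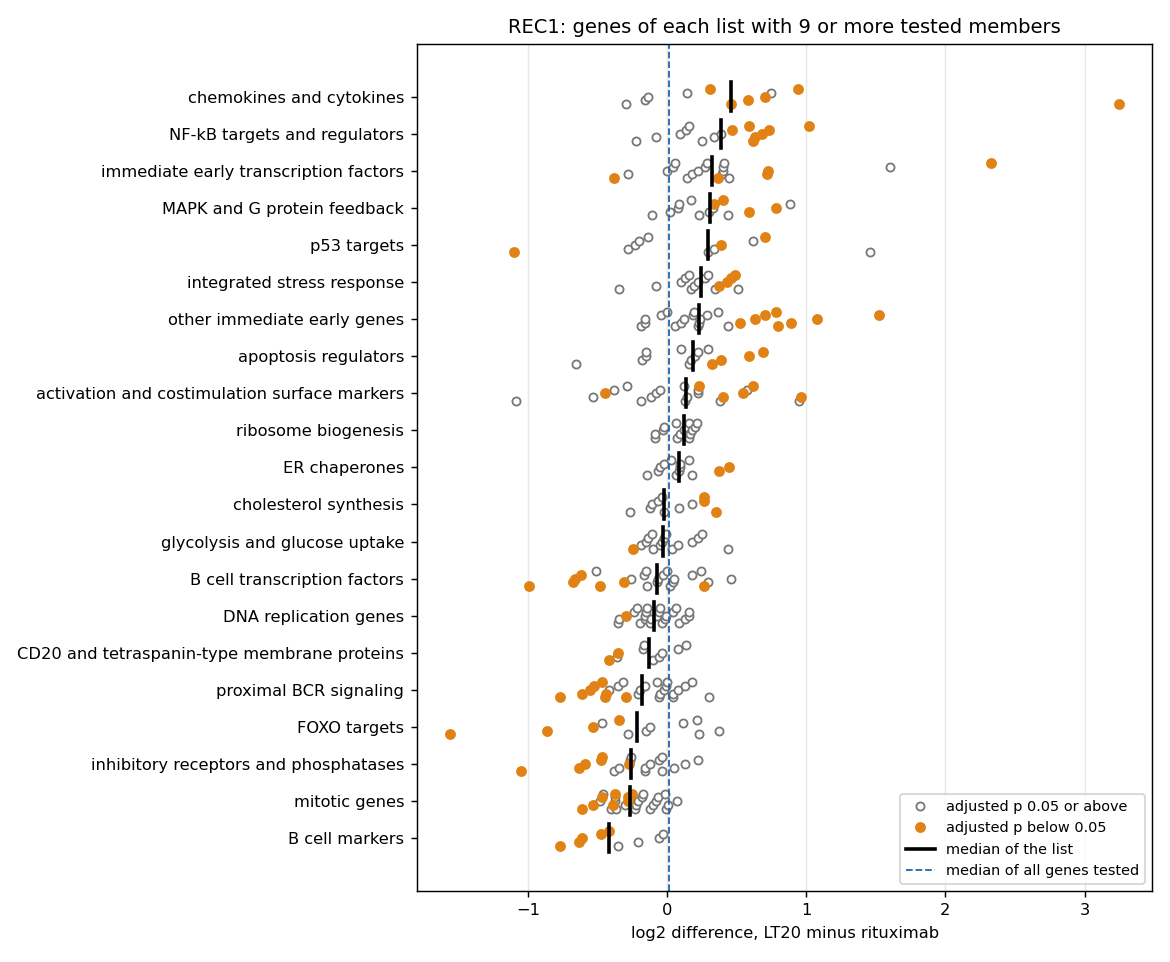
Log2 difference LT20 minus rituximab in REC1 for every tested gene of each list with 9 or more tested members (points, brightest probe set; filled where the adjusted p is below 0.05, limma), with the list median as a bar and the median of all genes, 0.01, as a dashed line. The list medians run from -0.42 for B cell markers to 0.46 for chemokines and cytokines; TNFSF14, at 3.25, has a signal of 14.9 with LT20 and 1.38 with rituximab, where a fold is imprecise.

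Anti-IgM gave a view of the same genes from arrays that the antibody comparison does not use. Across the 7841 genes the difference LT20 minus rituximab correlated with anti-IgM minus untreated at Pearson's r = 0.686 and Spearman's rho = 0.595, as a description across genes, which are not independent. IER3 was 3.8-fold lower with LT20 than with anti-IgM and SGK1 6.19-fold lower, while CFLAR, with 709 under LT20 and 670 under anti-IgM, did not pass between these groups (adjusted p = 0.635, limma).

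Genes that the study listed as shared by its treatments were read as well, a choice made on these samples. SRGN, a secretory granule proteoglycan, averaged 3160 ± 239 with LT20 and 2960 ± 277 with rituximab, and ZFP36L1, an RNA-binding protein that speeds mRNA decay, 1940 ± 233 and 1940 ± 166. Their arrays overlapped, as did those of VASP, a regulator of actin, at 1100 ± 169 and 864 ± 202. DAPP1, RNF144B, SSBP3 and VPREB3 were 1.25-fold, 1.58-fold, 1.23-fold and 1.28-fold lower with LT20 and did not pass (adjusted p = 0.0909, 0.0925, 0.0555 and 0.0809, limma), although RNF144B and VPREB3 passed in the fit of 4 cell lines (adjusted p = 0.000889 and 0.0197, limma). APBB1IP and NREP were lower by 1.36-fold and 1.38-fold and passed (adjusted p = 0.0322 and 0.0119, limma).

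The antibodies' target and the identity of the cells were checked. MS4A1, which encodes CD20, had 3910, 3720 and 3980 with LT20 and 4130, 4040 and 3900 with rituximab, overlapping groups whose fold of 1.04 has an interval of 0.951 to 1.14 (adjusted p = 0.641, limma; exact permutation test, two-sided, p = 0.3, where 0.1 is the smallest possible). All 9 B-cell markers measured were above 100, with summed signals of 11800 to 12100 with LT20, 13000 to 14500 with rituximab and 14400 to 15100 in untreated cells, and 5 of the 9 were lower with LT20. Of the mantle cell markers CCND1 (3370 with LT20) and SOX11 (357) were high, and CD5, a usual marker of the disease, was near background (7.62). None of 9 monocyte and 8 NK cell markers reached 100 with LT20, with rituximab or in untreated cells. GZMB, a granule protease, passed as higher with LT20 at 26.3, against 12.4 with rituximab, and reached 301 with anti-IgM, where PRF1, which encodes perforin, averaged 156. Of 9 T-cell markers CD3D (926 with LT20, 1260 with rituximab) and LCK (144 and 171) did with the antibodies, CD3G averaged 32.9 with LT20, 63 with rituximab and 125 in untreated cells, while CD3E, CD2 and CD4 stood at 47.4 or less with LT20. The T-cell markers summed to 1140 to 1330 with LT20 and 1620 to 1650 with rituximab, and the part of the B-cell and T-cell markers in the other results was not tested. Correlations between arrays were 0.989 to 0.993 within LT20, 0.983 to 0.991 within rituximab and 0.973 to 0.98 between the antibodies.

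The same pair of antibodies was then set side by side in the other lines, in 1 limma fit of 24 arrays with 10364 entries. LT20 and rituximab differed in 25 entries in REC1 (0.241%), 0 in SUDHL4, 0 in OciLy18 and 1 in Z138 (0.00965%). Of the 32 entries called above, 24 were called in REC1 in this fit and 8 were not, with the same folds and adjusted p values of 0.0588 for SH3RF1, 0.065 for CSF1, 0.0818 for the joint KLRC4-KLRK1 and KLRK1 probe set, 0.0935 for RASSF6, 0.105 for PDGFA, 0.147 for MBD1, 0.176 for IL4I1 and 0.235 for ETV1. CCL4 did not pass here either (adjusted p = 0.224, limma). In SUDHL4, 259 probe sets had an adjusted p below 0.05 (2542 an unadjusted p below 0.05), in OciLy18 15 (1677) and in Z138 24 (774). The 32 entries of REC1 were chosen by their REC1 difference, so their larger difference there is partly set by that choice. With this reservation, 18 of them differed between REC1 and SUDHL4 by the interaction (adjusted p below 0.05), 19 between REC1 and OciLy18 and 20 between REC1 and Z138, where 5.56%, 5.68% and 3.93% of all probe sets did. Signs matched REC1 in 16, 18 and 15 of the 32.

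SUDHL4 held some of these genes at high levels under both antibodies. There SGK1 averaged 940 ± 32.8 with LT20 and 921 ± 41.4 with rituximab (SD, n = 3), and CCNG2 1960 ± 102 and 1910 ± 89.1, so neither gene separated the antibodies. The joint MIR155 and MIR155HG probe set averaged 187 ± 16.7 with LT20 and 252 ± 10.8 with rituximab in SUDHL4, and the change relative to rituximab differed from REC1 by 1.6 on the log2 scale (interaction, adjusted p = 0.00067, limma). TMT1A averaged 1410 ± 12 with LT20 and 1200 ± 31.4 with rituximab, an interaction of -1.63 (adjusted p = 7.95e-11, limma). TOX2 was listed at 0 on every SUDHL4 array of both antibodies, and CSF1 averaged 5.6 with LT20 and 7.4 with rituximab on its called probe set, so their REC1 difference had no counterpart that SUDHL4 could show.

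**Figure D4:**
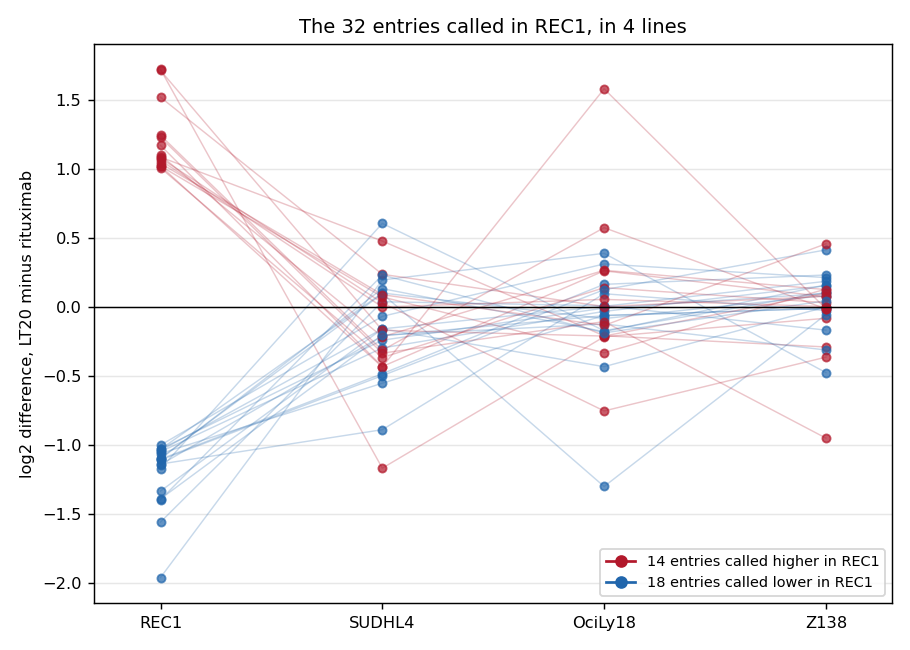
Log2 difference LT20 minus rituximab of the 32 entries called in REC1 (red, 14 higher; blue, 18 lower), in REC1, SUDHL4, OciLy18 and Z138 from the fit of 24 arrays; lines join the values of 1 entry. Outside REC1 the differences scatter on both sides of 0, and the points beyond 1 there, such as CSF1 in SUDHL4 at -1.17, come from signals near background.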

How the data were processed

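RNA was hybridized to Affymetrix HG-U133 Plus 2.0 arrays. The authors deposited 1 linear signal intensity per probe set and array, computed in GCOS with MAS5 and scaled to nearly equal array totals (8528613 to 8530013); detection calls were not used here. Gene symbols came from the platform annotation, with 1 symbol for 41097 probe sets, several for 1801 and none for 11777. A floor of 1 was applied before log2. The 14068 probe sets whose mean passed 100 in any of the 8 REC1 groups were fitted over 24 arrays with limma 3.58.1 in R 4.3.3 (variance trend, Benjamini-Hochberg adjustment over the probe sets of each contrast), and data were handled with its data.table package. The floor makes folds of dim probe sets imprecise, and the number of arrays limits the precision. Members and lists were chosen with earlier results of these data known. Named are the 15 genes of largest rise and fall among called genes with separate arrays, the genes of the study's shared list, CCL3, CCL4, SYK, MS4A1 and FCGR2B, and the 4 members of smallest adjusted p in lists with 3 called; a gene is given by its brightest probe set and, where another was called, by that too; other list members are examples chosen after their values were seen. Alternatives were a constant of 16, no filter, quantile normalization, the 6 arrays alone, no trend, leaving out each array, a replicate block and other limits. The method was tested on simulated data. The authors' tables of group means and change factors were not used. Promoter motif searches for CRE, AP-1, CArG box and, added after seeing the data, FOXO gave at most 1 match among called genes in each direction.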

Additional observations from a re-analysis of the deposited data

Results flagged for a closer look

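The difference between LT20 and rituximab was tested between lines, and 18 of the 32 entries called in REC1 differed from SUDHL4, 19 from OciLy18 and 20 from Z138 by the interaction (adjusted p below 0.05, limma). The entries had been chosen for their REC1 difference. Against SUDHL4, the log2 difference was larger in REC1 by 1.38 for RGS16, 1.28 for IER3, 0.95 for CFLAR, 1.05 for SGK1, 1.88 for MIR146A, 1.6 for the joint MIR155 and MIR155HG probe set, 2.89 for CSF1 and 1.06 for TOX2. CSF1 was near background in SUDHL4 and TOX2 listed at 0 there. The log2 difference was lower in REC1 than in SUDHL4 for CCNG2 (-1.6), CYSLTR1 (-1.78, near background in SUDHL4), TMT1A (-1.63), ELL3 (-1.24) and GLIPR1 (-1.18). It was also lower for DAAM1 (-1.13), ATP2A3 (-0.94), GLRX (-0.88), FCRLA (-0.79) and the probe set with no gene symbol (-0.51). Groups of 3 arrays are small, and single arrays were not left out in turn for these differences between lines. They were left out for the REC1 counts below.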

How the results depend on the processing

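The counts of 14 higher and 18 lower entries stayed within 1.5 times with no filter, quantile normalization, the 6 arrays alone, no trend and fold limits without a test. Leaving out 1 array gave 13 to 18 higher and 16 to 26 lower. Without rituximab replicate 2, 10 of the 14 and 12 of the 18 were shared, while without rituximab replicate 1 the lower count was 26. With 16 added to each signal the counts were 6 and 9, all among the original entries, with no 2-fold limit 586 and 417, and counting each gene by its brightest probe set 9 and 11. Against the F(ab')2 fragment the 12 higher entries became 7 with 16 added. In the fit of 4 lines 16 added gave 16 entries in REC1 in place of 25, 0 in Z138 in place of 1, and 29 of the REC1 entries differing from SUDHL4 in place of 18. The cause was not tested. A replicate block left 14 and 18 calls; correlations of same-numbered deviations were 0.158, 0.095 and 0.042, so numbers were not used as pairs. Of 707 values of single probe sets under alternatives 676 kept direction and side of the threshold, 7 newly passed, 21 no longer passed and 3 reversed. Among called entries GNAO1 and PTGER4 lost their p (0.098 and 0.0978 with no filter), and 8 lost it in the fit of 4 lines (0.0588 to 0.235), CSF1 among them. ZFP36L1, near 0, ranged from -0.085 to 0.089 when 1 array was left out, reversing to 0.089 without LT20 replicate 1, 0.039 without rituximab replicate 1 and 0.029 without rituximab replicate 3.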
